A study of Mus musculus with 6 samples.

Results

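The 10 genes followed here, in mouse cells treated with metformin, belong to the pathway around phosphorylation of the translation initiation factor eIF2α. They are the sensor kinases Eif2ak1, Eif2ak2, Eif2ak3 and Eif2ak4, the substrate Eif2s1, the phosphatase subunits Ppp1r15a and Ppp1r15b, and the transcription factors Atf4, Atf5 and Cebpg. The genes were taken by symbol from a list of this pathway, and each matched 1 gene of the 55401 in the expression table. This list and the other gene lists below were chosen with earlier results of these data known. All 10 averaged 1 FPKM or more and were tested among the 10661 genes that met this limit. FPKM gives the fragments of a gene per kb of its exons, scaled to the mapped fragments of the library, so it compares levels between genes per length.

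When eIF2α is phosphorylated, general initiation of translation slows, while mRNAs with upstream open reading frames such as those of Atf4, Atf5 and Ppp1r15a are translated better. Each kinase senses another stress: Eif2ak1 (HRI) responds to lack of heme and to mitochondrial stress, Eif2ak2 (PKR) to double-stranded RNA, Eif2ak3 (PERK) to unfolded protein in the endoplasmic reticulum and Eif2ak4 (GCN2) to uncharged tRNA. Metformin is a biguanide reported to lower the activity of the first complex of the respiratory chain. Whether it did so at the dose used here was not measured in these data. The deposited values measure RNA, and neither phosphorylation of eIF2α nor translation was measured in the data used here.

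The RNA came from cultures labelled as female germline stem cells (FGSCs) of C57BL/6 mice, passaged more than 20 times and grown on inactivated STO fibroblast feeders. The control group had no treatment, the metformin group received 1 μM metformin for 24 h, and each group had 3 libraries (repeats 1 to 3). Groups follow the treatment label, because the protocol text names metformin for all 6 samples, controls included. The labels do not say whether the repeats were separate cultures, so p-values measure only the spread between these libraries, which may be technical. Estimated depth was 13400000 to 14050000 mapped fragments per library, and 3 fragments per kb of exon corresponded to 0.214 to 0.224 FPKM.

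The label of the cells was compared with marker genes. Of 6 germ cell markers, 0 reached a mean of 1 FPKM, and Dppa3, Dazl and Pou5f1 were at 0 in all 6 libraries. The summed level of this list was 0.48 to 1.38 FPKM in control and 0.33 to 0.93 FPKM in metformin libraries. All 8 blood cell markers were above 10 FPKM, with a summed level of 524 to 538 FPKM in control and 541 to 550 FPKM in metformin libraries. Of 6 mast cell markers, only Cpa3 reached 1 FPKM, and the summed level of this list was 357 to 386 FPKM in control and 330 to 349 FPKM in metformin libraries, with Mcpt4, Tpsb2 and Fcer1a at 0. The sum of 8 fibroblast markers stayed at or below 0.92 FPKM, and of 6 ovarian somatic markers Foxl2, Fshr, Cyp19a1 and Wt1 were at 0, Amh was at 0.36 to 0.98 FPKM and Star at 1.78 to 2.03 FPKM. The blood cell sum was higher and the mast cell sum lower in metformin libraries, without overlap. Within the blood cell list the direction differed, since Coro1a (136.9 against 141.6 FPKM), Laptm5, Rac2 and Vav1 had higher and Ptprc (13.68 against 13.03 FPKM), Cd48 and Spi1 lower means in metformin cells, and the mast cell sum was nearly all Cpa3. Their part in the results was not tested. In bulk RNA, fewer cells of a type and less RNA per cell cannot be told apart.

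The promoter sequences that bear on the members are shown first. RefSeq windows of GRCm38.p6, from 250 bases before to 50 bases after the start, were found for 9 of the 10 genes, Ppp1r15b being the exception, and gave 11 windows because Eif2ak4 and Atf5 have more than 1 start. They were searched on both strands for TGATGNAA, the C/EBP-ATF element through which ATF4 and C/EBP factors act, for TGACGTCA, the cyclic AMP response element (CRE) bound by factors of the ATF and CREB family, and for GAAANNGAA, a core of interferon response elements. Of all 32851 windows, 3.97% held TGATGNAA, 1.79% held TGACGTCA and 8.56% held GAAANNGAA. The sequences below run 5′ to 3′ on the strand of the gene, with motif matches in capitals. Ppp1r15a and Atf4 are shown because they had the lowest p among the members, with the 250 bases before each start (Ppp1r15a, chr7:45526269-45526518, minus strand, and Atf4, chr15:80254934-80255183, plus strand). Eif2ak2 (chr17:78882532-78882561, minus strand) and Eif2s1 (chr12:78861852-78861881, plus strand) are shown as 30 bases around their matches.
Ppp1r15a: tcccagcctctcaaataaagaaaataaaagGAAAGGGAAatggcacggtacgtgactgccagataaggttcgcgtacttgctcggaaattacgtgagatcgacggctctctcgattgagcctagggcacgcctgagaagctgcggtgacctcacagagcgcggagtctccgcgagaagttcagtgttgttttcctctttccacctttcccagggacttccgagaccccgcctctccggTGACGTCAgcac
Atf4: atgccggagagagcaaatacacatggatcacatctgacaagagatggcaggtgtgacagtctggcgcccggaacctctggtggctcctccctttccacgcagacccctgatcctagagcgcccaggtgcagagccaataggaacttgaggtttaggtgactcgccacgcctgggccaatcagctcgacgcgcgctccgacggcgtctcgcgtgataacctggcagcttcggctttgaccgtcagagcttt
Eif2ak2: ccgccggGAAAACGAAACAGAAgagaaccg
Eif2s1: tggagcaaGAAACAGAAacttacctctcct

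The CRE was present in 1 of the 9 genes, Ppp1r15a, with its first base at position -12 from the start. GAAANNGAA began at position -220 in Ppp1r15a, at -212 in Eif2s1, and as 2 overlapping copies at positions 18 and 24 after the start in Eif2ak2. TGATGNAA was found in 0 of the 11 windows. The windows of the members were 53.0% to 71.7% GC, and the median over all windows was 52.7%. A match describes letters in these windows, and occupancy by any factor was not measured in the data used here.

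Metformin and control libraries were first compared over the whole group of members. Because the members were not chosen blind to these data, their shares beside those of all tested genes are a description. None of the 10 genes passed limma's test after Benjamini-Hochberg adjustment over all tested genes (0 of 10, with 0.0281% of all tested genes passing in either direction). At an unadjusted p of 0.05, Ppp1r15a and Atf4 were higher with metformin (2 of 10, where 6.03% of all tested genes were higher) and 0 of 10 were lower (4.81% of all tested genes). The 3 metformin libraries lay above all 3 control libraries for Ppp1r15a, Atf4 and Ppp1r15b (3 of 10, where 8.89% of all tested genes did so). No member lay below without overlap, which 8.1% of all tested genes did. The mean difference was above 0 for 8 members and below 0 for Eif2ak2 and Eif2s1. The median log2 difference of the members was 0.05, against 0.0041 over all tested genes.

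**Figure D1:**
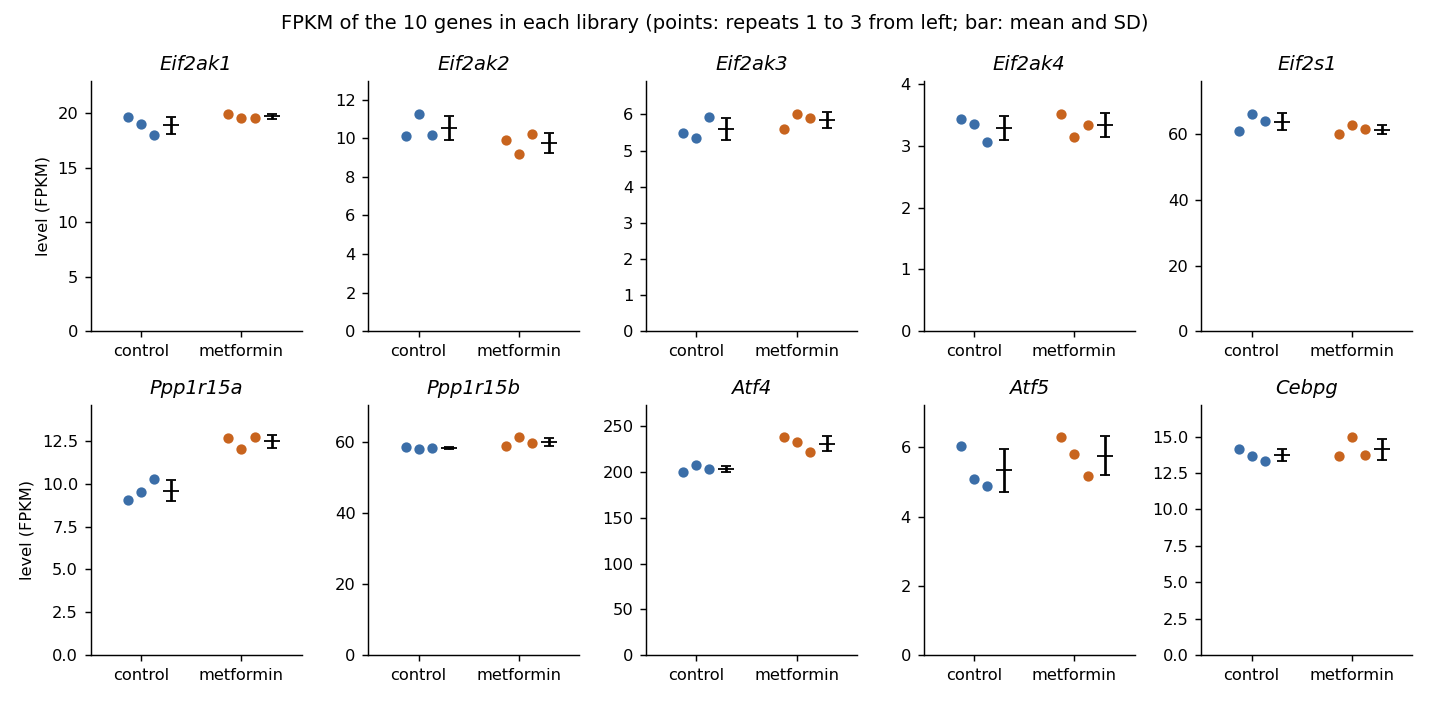
Level of the 10 genes in FPKM (y axis, from 0) in each library, with points for repeats 1 to 3 of the control (blue) and metformin (orange) groups and bars for the mean and SD. The points of both groups stand apart in Ppp1r15a (9.04 to 10.3 against 12.06 to 12.73 FPKM) and Atf4 (200 to 207 against 222 to 238 FPKM) and lie next to or among each other in the other 8 genes.

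In control cells the levels of the members spanned from 3.28 FPKM for Eif2ak4 to 204 FPKM for Atf4. Atf4 was the most abundant, and its mean over all 6 libraries was higher than that of 98.3% of the tested genes. Its control level was 3.19 times that of Eif2s1, the next in order. Ppp1r15b, Eif2ak1, Cebpg, Eif2ak2, Ppp1r15a, Eif2ak3, Atf5 and Eif2ak4 followed. Among neighbours in this order, the control ranges overlapped for Eif2ak2 and Ppp1r15a and for Eif2ak3 and Atf5, so these neighbours did not differ beyond their spread. In metformin cells the order was the same except that Ppp1r15a stood above Eif2ak2 in 3 of 3 libraries, and the ranges overlapped for Eif2s1 and Ppp1r15b and again for Eif2ak3 and Atf5.

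Among the kinases, Eif2ak1 had the highest RNA level and Eif2ak4 the lowest in both groups. Of the summed FPKM of the 4 kinases, Eif2ak1 made up 49.3% ± 1.25 (SD, n = 3) in control and 51.0% ± 0.771 in metformin cells. Eif2ak2 made up 27.5% ± 1.35 and 25.3% ± 0.987, Eif2ak3 14.6% ± 1.16 and 15.1% ± 0.757, and Eif2ak4 8.57% ± 0.326 and 8.62% ± 0.384, each with overlapping groups. The sum itself was 38.3 ± 0.953 FPKM in control and 38.7 ± 0.604 FPKM in metformin cells, again with overlapping groups.

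Eif2ak1 (ENSMUSG00000029613, chr5:143817788-143904251, plus strand), the heme-regulated kinase, had 19.64, 19.02 and 18.05 FPKM in control repeats 1 to 3 and 19.98, 19.6 and 19.58 FPKM in metformin repeats 1 to 3. The metformin libraries lay close together at the upper edge of the control range, and the groups overlapped. The log2 difference of (FPKM + 1) was 0.06 (SE 0.04, 95% interval -0.03 to 0.14, limma adjusted p = 0.592), and it was 0.028 to 0.085 with 1 library left out. Eif2ak1 overlaps Aimp2 on the opposite strand by 1548 bp, a gene with 39.2 ± 1.22 FPKM in control and 40.9 ± 1.20 FPKM in metformin cells, and strand use in the counting is not given in the sources used here.

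Eif2ak2 (ENSMUSG00000024079, chr17:78852564-78882573, minus strand), the kinase for double-stranded RNA and an interferon-stimulated gene, had 10.13, 11.27 and 10.18 FPKM in control and 9.88, 9.2 and 10.23 FPKM in metformin repeats. It was the only kinase with a lower mean in metformin cells, and the groups overlapped. The log2 difference was -0.10 (SE 0.06, 95% interval -0.23 to 0.03, limma adjusted p = 0.559), and it was -0.13 to -0.05 with 1 library left out.

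Eif2ak3 (ENSMUSG00000031668, chr6:70844515-70905245, plus strand), which spans the membrane of the endoplasmic reticulum, had 5.48, 5.36 and 5.93 FPKM in control and 5.59, 6.02 and 5.89 FPKM in metformin repeats. The values of both groups were intermixed, and the log2 difference was 0.05 (SE 0.05, 95% interval -0.07 to 0.17, limma adjusted p = 0.742, 0.028 to 0.090 with 1 library left out). Eif2ak4 (ENSMUSG00000005102, chr2:118388618-118475234, plus strand), the amino acid sensor, had 3.43, 3.36 and 3.06 FPKM in control and 3.52, 3.14 and 3.34 FPKM in metformin repeats. Its groups overlapped over nearly their whole range, with a log2 difference of 0.02 (SE 0.06, 95% interval -0.13 to 0.16, limma adjusted p = 0.947). The sign turned to -0.021 without control repeat 3 and to -0.014 without metformin repeat 1. By estimated depth and the exon lengths of GENCODE M1, Eif2ak4 rested on 320 to 369 fragments per library and Eif2ak3 on 399 to 456. These fragment numbers, like those below, are estimates.

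Whether the kinases changed by different amounts was tested with log2 ratios of (FPKM + 1) within each library, as part of 10 pairs of members. The smallest two-sided p that an exact permutation test of 3 libraries against 3 can give is 0.1. The largest difference among the 6 kinase pairs was that of Eif2ak1 against Eif2ak2, with 0.16 on the log2 scale (exact permutation p = 0.2, 0.4 after Benjamini-Hochberg adjustment over the 10 pairs). For this pair the ratio of FPKM was 1.94, 1.69 and 1.77 in control and 2.02, 2.13 and 1.91 in metformin repeats, and the groups overlapped because metformin repeat 3 lay below control repeat 1. Eif2ak2 against Eif2ak3 gave -0.15 (exact permutation p = 0.3) and Eif2ak2 against Eif2ak4 gave -0.11 (exact permutation p = 0.2). The remaining 3 kinase pairs, which leave out Eif2ak2, differed by 0.0059 to 0.04 with exact permutation p from 0.3 to 1.

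Eif2s1 (ENSMUSG00000021116, chr12:78861819-78887010, plus strand) encodes eIF2α, the subunit that the kinases phosphorylate. Its level was 61.08, 66.34 and 64.21 FPKM in control and 60.01, 62.88 and 61.55 FPKM in metformin repeats. The metformin values lay in the lower part of the control range or just under it, and the groups overlapped. The log2 difference was -0.05 (SE 0.04, 95% interval -0.14 to 0.03, limma adjusted p = 0.613), and it was -0.09 to -0.03 with 1 library left out. Without control repeat 1, the lowest control library, the unadjusted limma p was 0.0358. Of the 10 genes, Eif2s1 was the only one for which the search kept a transcript match elsewhere in the genome, at 2 places. The better match covered 43.0% of the transcript at 96.9% identity, so reads may have been split there. Matches that scored far below the best one were dropped, so shorter copies of any of the 10 genes may be missed.

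The PP1 regulatory subunits direct protein phosphatase 1 to eIF2α and so reverse its phosphorylation. Ppp1r15b (CReP) is the constitutive subunit and Ppp1r15a (GADD34) the one induced by stress. Ppp1r15a (ENSMUSG00000040435, chr7:45522916-45526268, minus strand) had 9.04, 9.52 and 10.3 FPKM in control and 12.69, 12.06 and 12.73 FPKM in metformin repeats. The groups did not overlap, and the gap between the groups was wider than the range within either. The means were 9.62 ± 0.636 FPKM in control and 12.5 ± 0.376 FPKM in metformin cells (SD, n = 3), which is 1.30 times as high.

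For Ppp1r15a the log2 difference was 0.35 (SE 0.05, 95% interval 0.23 to 0.47). Its unadjusted limma p of 0.000209 ranked 10 among all tested genes, but the adjusted p was 0.223, and the exact permutation p was 0.1, the smallest possible. A larger log2 increase was measured for 108 genes. The gene rested on 356 to 524 fragments per library, whose counting error is 0.07 on the log2 scale for one library. The promoter window of Ppp1r15a, printed above, holds the CRE and a GAAANNGAA match, and a link of either to the level was not tested. The only gene with reads that overlaps Ppp1r15a, Tulp2 on the opposite strand, had a mean of 0.095 FPKM.

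Ppp1r15b (ENSMUSG00000046062, chr1:133131143-133139783, plus strand) had 58.48, 58.04 and 58.08 FPKM in control and 58.91, 61.2 and 59.63 FPKM in metformin repeats. The groups did not overlap, and the mean was 2.94% higher in metformin cells. The closest libraries of the groups were at 58.48 FPKM in control and 58.91 FPKM in metformin cells. The control repeats varied by 0.418% of their mean (SD), while the counting error of Ppp1r15b is 0.021 on the log2 scale for 1 library. The log2 difference was 0.04 (SE 0.02, 95% interval -0.01 to 0.10, limma adjusted p = 0.561), and it was 0.026 to 0.053 with 1 library left out. The interval for Ppp1r15b ends below the start of that for Ppp1r15a.

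The ratio of Ppp1r15a to Ppp1r15b FPKM was 0.155, 0.164 and 0.177 in control and 0.215, 0.197 and 0.213 in metformin repeats. All metformin ratios were above all control ratios, and the log2 ratios differed by 0.31 (exact permutation p = 0.1, 0.333 after adjustment over the 10 pairs). Ppp1r15a made up 14.2% ± 0.841 of the summed FPKM of both subunits in control and 17.3% ± 0.694 in metformin cells (SD, n = 3), so Ppp1r15b remained the more abundant RNA in each library.

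**Figure D2:**
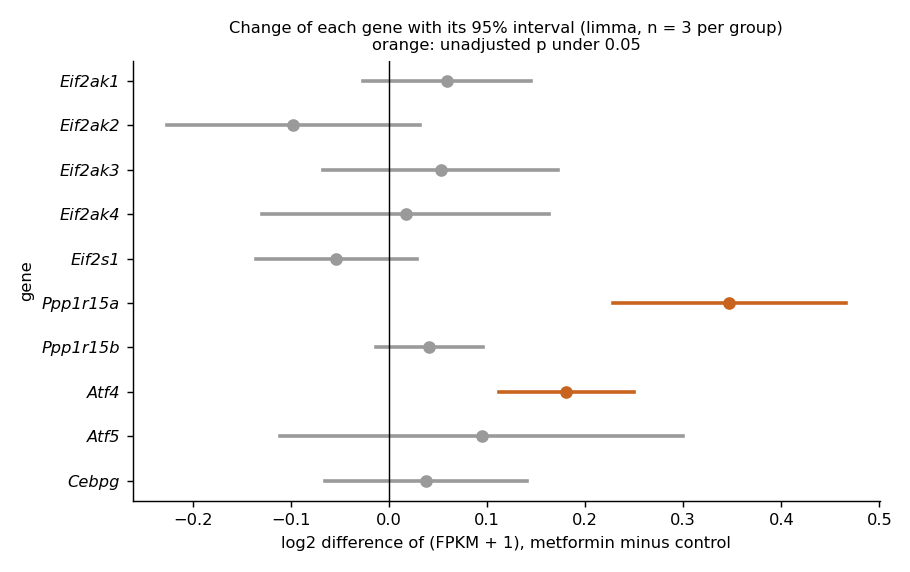
Difference in log2(FPKM + 1), metformin minus control, for each gene (points) with its 95% interval from limma (lines, 3 libraries per group), in orange where the unadjusted p is under 0.05. The intervals of Ppp1r15a (0.23 to 0.47) and Atf4 (0.11 to 0.25) lie above 0 and those of the other 8 genes include 0.

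ATF4 is the bZIP activator whose translation increases when eIF2α is phosphorylated, and its own RNA is also under transcriptional control. Atf4 (ENSMUSG00000042406, chr15:80255184-80257541, plus strand) had 200.29, 207.4 and 202.93 FPKM in control and 238.02, 232.99 and 221.8 FPKM in metformin repeats. The lowest metformin library was above the highest control library. The means were 204 ± 3.59 FPKM in control and 231 ± 8.30 FPKM in metformin cells (SD, n = 3), a value 13.5% higher with metformin. The log2 difference was 0.18 (SE 0.03, 95% interval 0.11 to 0.25). The unadjusted limma p was 0.000421, ranked 18 among all tested genes, with an adjusted p of 0.243 and an exact permutation p of 0.1. A larger log2 increase was measured for 402 genes, so Atf4 ranked higher by p than by size. It rested on 4627 to 5765 fragments per library and overlaps no other gene of the table.

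Atf5 (ENSMUSG00000038539, chr7:44812256-44816658, minus strand), a bZIP factor that shares the translational control of Atf4 and is known for its role in mitochondrial stress, was low. It had 6.03, 5.09 and 4.88 FPKM in control and 6.29, 5.82 and 5.16 FPKM in metformin repeats. Repeat 1 was the highest library of each group, and the groups overlapped. The log2 difference was 0.09 (SE 0.09, 95% interval -0.11 to 0.30, limma adjusted p = 0.732), and it was 0.038 without metformin repeat 1 and 0.17 without control repeat 1. Its 136 to 176 fragments per library give a counting error of 0.12 on the log2 scale, the largest of the 10 genes, and its interval includes the difference found for Atf4. Atf5 also overlaps an unnamed gene on the opposite strand (ENSMUSG00000109511) by 571 bp, which had 63.7 ± 3.37 FPKM in control and 65.6 ± 3.05 FPKM in metformin cells, and reads of both may be mixed if the counting ignored strand.

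Cebpg (ENSMUSG00000056216, chr7:35046422-35056573, minus strand) encodes C/EBPγ, a dimer partner of ATF4. It had 14.16, 13.67 and 13.35 FPKM in control and 13.68, 14.95 and 13.73 FPKM in metformin repeats. Metformin repeat 2 was high and the other metformin libraries lay within the control range. The log2 difference was 0.04 (SE 0.04, 95% interval -0.07 to 0.14, limma adjusted p = 0.796), and it was -0.0018 without metformin repeat 2. An unnamed gene on the same strand overlaps Cebpg by 1140 bp and had a mean of 1.18 FPKM.

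Atf4 was set against its partner, its paralogue and the substrate gene by ratios within a library. The ratio of Atf4 to Eif2s1 FPKM was 3.28, 3.13 and 3.16 in control and 3.97, 3.71 and 3.60 in metformin repeats. Their log2 ratios differed by 0.23 between the groups, which did not overlap (exact permutation p = 0.1, 0.333 after adjustment over the 10 pairs). The ratio of Atf4 to Cebpg was 14.1, 15.2 and 15.2 in control and 17.4, 15.6 and 16.2 in metformin repeats, again without overlap, with a difference of 0.14 in log2 ratio (exact permutation p = 0.1, 0.333 adjusted). Against Atf5 the difference was 0.09 with overlapping groups (exact permutation p = 0.6, 0.75 adjusted). A smaller change of Atf5 than of Atf4 was therefore not shown. Over the 10 pairs, 0 had an exact p under 0.05, adjusted or unadjusted, and this design can give neither.

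**Figure D3:**
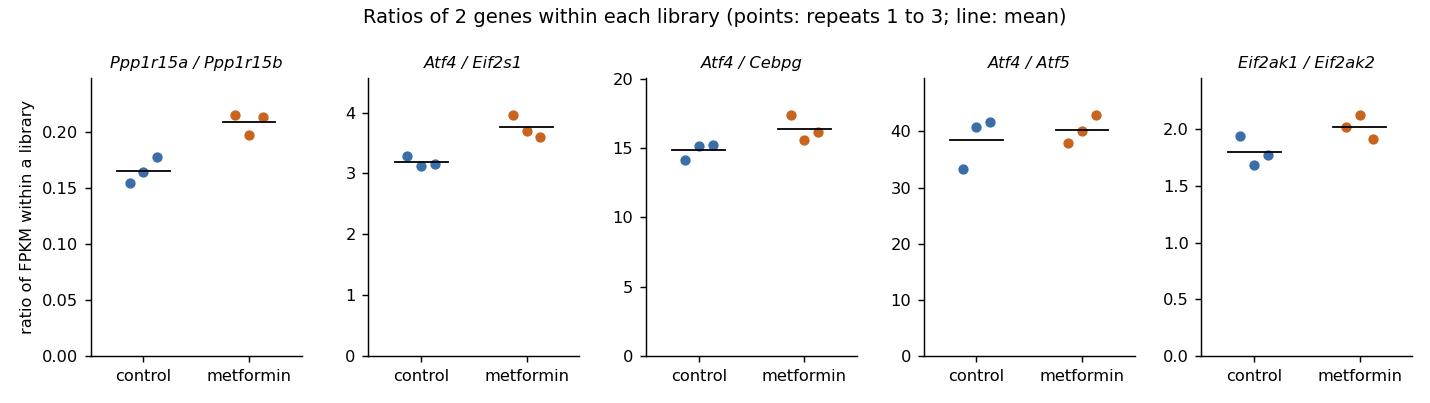
Ratio of the FPKM of 2 genes within each library (y axis, from 0) for 5 of the 10 pairs, with points for repeats 1 to 3 of the control (blue) and metformin (orange) groups and lines for the group means. The metformin points lie above the control points for Ppp1r15a to Ppp1r15b (0.197 to 0.215 against 0.155 to 0.177), Atf4 to Eif2s1 and Atf4 to Cebpg, and overlap with them for Atf4 to Atf5 and Eif2ak1 to Eif2ak2.

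The 5 genes whose pattern over the 6 libraries was most like that of Atf4 were Tspan5, Gpr56, Eif4ebp1, Tmem160 and Cenpv. Likeness was the mean absolute difference from Atf4 in the deviations of log2(FPKM + 1) from each gene's own mean, and it was 0.0116 for Tspan5, 0.0134 for Gpr56, 0.0196 for Eif4ebp1, 0.0242 for Tmem160 and 0.0264 for Cenpv, where Atf4 itself had an SD of 0.0409 within groups. Eif4ebp1 encodes 4E-BP1, an inhibitor of cap-dependent translation, and was at 35.7 FPKM in control and 40.1 FPKM in metformin cells, a log2 difference of 0.16. These genes were chosen by this measure, so their values are a description.

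The partners and regulators of ATF4 were then read from the same fit. Earlier results of these data were known when this list was fixed, so its shares beside those of all tested genes are a description. Of 18 listed genes, 10 were tested, 4 were higher at an unadjusted p of 0.05 (6.03% of all tested genes), 0 were lower (4.81%) and 2 passed after adjustment (0.0281%), with a median log2 difference of 0.07. This median was 0.031 without metformin repeat 1. Trib3 encodes a pseudokinase that binds ATF4 and is transcribed in response to it. It rose from 6.42, 6.92 and 6.33 FPKM in control to 15.89, 16.43 and 15.82 FPKM in metformin repeats, a log2 difference of 1.17 (SE 0.04, limma adjusted p = 0.000127). Ddit3 encodes CHOP, the bZIP partner of ATF4 in stress. It rose from 7.32, 6.9 and 7.77 FPKM in control to 12.39, 13.45 and 12.86 FPKM in metformin repeats, a log2 difference of 0.74 (SE 0.05, limma adjusted p = 0.00453). The metformin libraries of both genes were far above the control libraries, with no overlap.

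Ddit3 and Trib3 were 2 of the 3 genes that passed over the whole table. The third, Chac1, named after its values were seen, encodes an enzyme that degrades glutathione and rose from 2.52 ± 0.256 to 6.94 ± 0.348 FPKM (SD, n = 3). Ddit3 overlaps Mars on the opposite strand by 68 bp, a gene with 58.2 ± 1.26 FPKM in control and 61.2 ± 1.09 FPKM in metformin cells. Cebpb, encoding another C/EBP partner, was at 24.9 ± 0.410 FPKM in control and 26.8 ± 0.923 FPKM in metformin cells (log2 difference 0.11, limma adjusted p = 0.367). It overlaps Tmem189 on the opposite strand by 908 bp, a gene with 21.4 ± 2.05 FPKM in control and 22.4 ± 2.11 FPKM in metformin cells. Egln3, a prolyl hydroxylase reported to bind ATF4, was at 19.8 ± 1.12 and 21.8 ± 0.345 FPKM (log2 difference 0.14, limma adjusted p = 0.369). Trib1, Trib2, Atf3, Cebpa, Cebpd, Cebpe, Nupr1 and Fos were under the limit of 1 FPKM. Of these, Atf3, a stress-induced bZIP factor, had 0.38, 0.2 and 0.2 FPKM in control and 0.63, 0.66 and 0.91 FPKM in metformin repeats. The groups of Atf3 did not overlap (exact permutation p = 0.1, the smallest possible), and limma did not test the gene. Control repeats 2 and 3 of Atf3 lay below the level of 3 fragments per kb. Cebpd, near or below that level, was also higher without overlap, and Cebpe had a lower mean in metformin cells with overlapping groups.

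**Figure D4:**
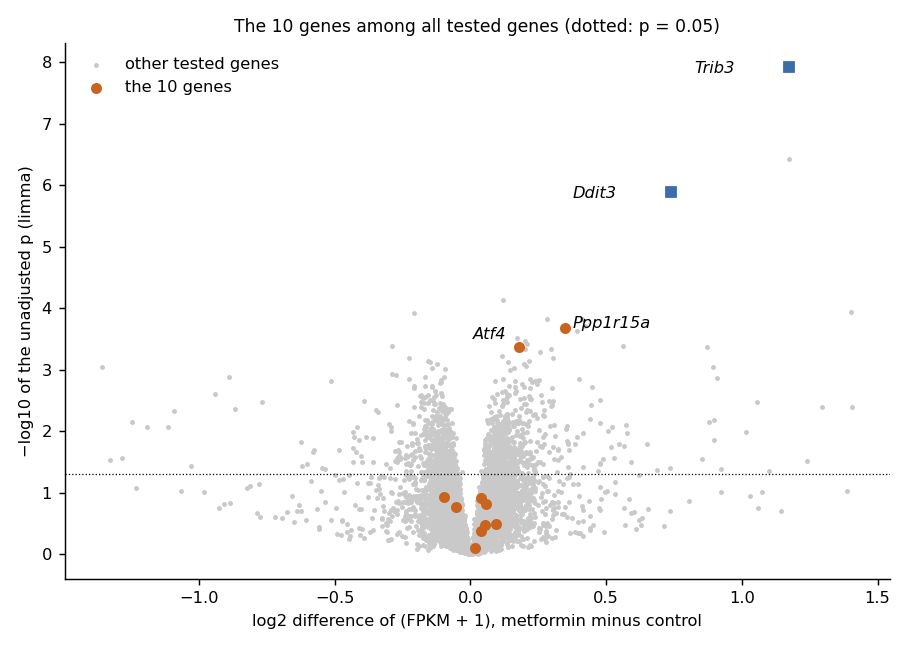
Difference in log2(FPKM + 1), metformin minus control (x axis), against -log10 of the unadjusted limma p-value (y axis) for the tested genes (grey), the 10 genes (orange circles) and the partners Trib3 and Ddit3 (blue squares), with the threshold of 0.05 as a dotted line. Ppp1r15a and Atf4 lie above the line at 0.35 and 0.18 and the other 8 members below it.

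The genes that act on the kinases were read next. Of 10 tested, 8 had a difference below 0, 1 was lower at an unadjusted p of 0.05 (4.81% of all tested genes) and 0 were higher (6.03%), with a median of -0.04, and 0 passed limma's test after adjustment. Hspa5 encodes BiP, the chaperone that holds PERK inactive, and had 270.53, 273.54 and 274.38 FPKM in control and 261.58, 262.97 and 263.79 FPKM in metformin repeats. These groups did not overlap, but the log2 difference was only -0.05 (SE 0.02, limma adjusted p = 0.364). Impact, Tarbp2 and Dnajc3, which encode inhibitors of GCN2, PKR and both PKR and PERK, had differences of -0.06, -0.08 and -0.05 with overlapping groups. Gcn1, the activator of GCN2, and Oma1 and Dele1, which relay mitochondrial stress to HRI, differed by -0.03, -0.05 and -0.00051. Prkra and Nck1 had differences above 0, of 0.05 and 0.03. These 5 genes were named after their values were seen, and their groups overlapped.

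The next list held the other subunits of eIF2, those of its exchange factor eIF2B, and partners of eIF2, and its genes differed in sign. The factor eIF2B reloads eIF2 with GTP and is blocked by phosphorylated eIF2α. Of 12 listed genes 11 were tested, 1 was higher (6.03% of all tested genes) and 1 lower (4.81%) at an unadjusted p of 0.05, and 0 passed limma's test after adjustment, with a median of -0.02. The median turned to 0.012 without control repeat 2 and to 0.0039 without metformin repeat 2, and the count in either direction was 0 without control repeat 1, 4 without control repeat 3 or metformin repeat 2, and 1 without each other library. Eif2b4, a regulatory subunit of eIF2B, was at 33.5 ± 0.711 FPKM in control and 35.2 ± 0.676 FPKM in metformin cells (log2 difference 0.07, limma adjusted p = 0.436). Eif2s3x, the γ subunit of eIF2, was at 30.5 ± 0.517 and 28.2 ± 1.46 FPKM (log2 difference -0.11, limma adjusted p = 0.408). Eif2b1 and Eif2a had overlapping groups and differences of -0.10 and -0.09, where Eif2a is listed as a partner and is not the gene of eIF2α. Eif2s3y was listed at 0 in all libraries.

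The catalytic subunits of protein phosphatase 1, which Ppp1r15a and Ppp1r15b recruit, differed in sign. Ppp1cb was at 44.5 ± 0.503 FPKM in control and 42.1 ± 0.917 FPKM in metformin cells, without overlap (log2 difference -0.08, limma adjusted p = 0.390). Ppp1ca, the most abundant of the 3, was at 180 ± 4.48 and 188 ± 4.43 FPKM with overlap (log2 difference 0.06, limma adjusted p = 0.462). Ppp1cc was at 32.3 ± 1.29 and 31.6 ± 0.860 FPKM (log2 difference -0.03).

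**Figure D5:**
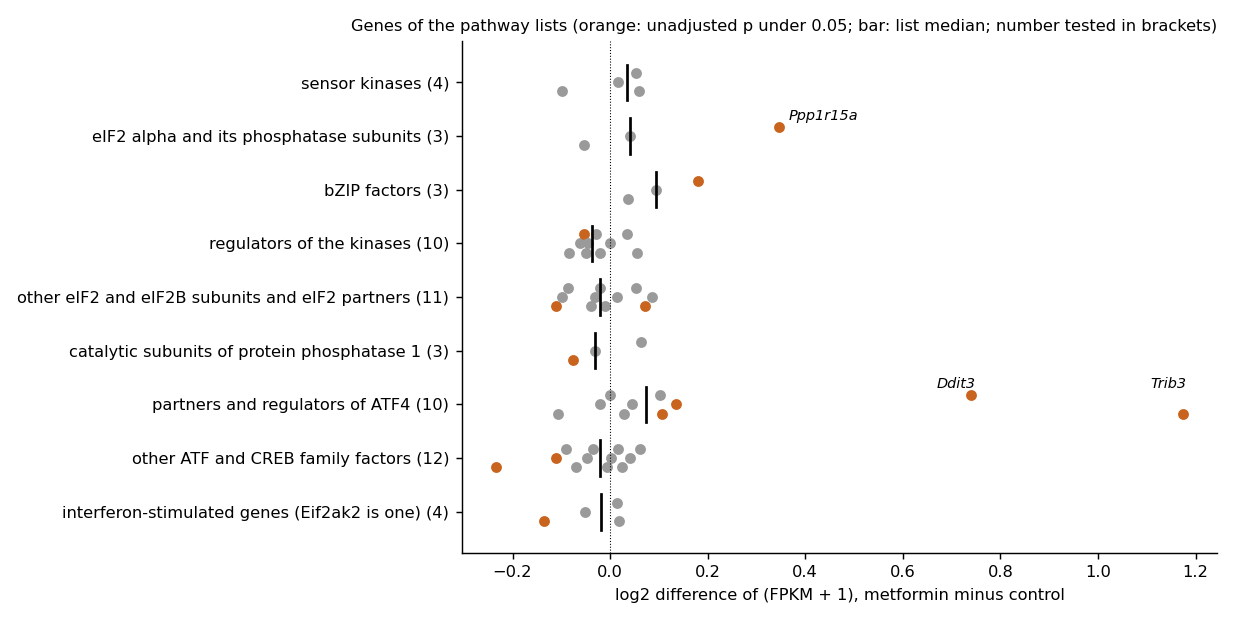
Difference in log2(FPKM + 1), metformin minus control (x axis), of each tested gene of the pathway lists (y axis, number tested in brackets), in orange where the unadjusted limma p is under 0.05, with bars for list medians. The partners and regulators of ATF4 hold the largest differences (Trib3 1.17 and Ddit3 0.74), while the medians of the lists lie between -0.04 and 0.09.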

How the data were processed

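RNA-seq of 3 control and 3 metformin libraries was analysed. The authors deposited FPKM values with 2 decimals for 55401 Ensembl genes, 1 column per library, and 0 columns of values were left unused. The submitters' processing notes name HISAT2, DESeq2 and mm9 without versions, whereas the positions in the table are those of GRCm38. The labels name a stranded mRNA kit and the study's methods another kit. The counting tool and its use of strand are not given in the sources used here. Symbols were matched by Ensembl identifier for 32589 genes.

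The members and gene lists were chosen with earlier results of these data known. Depth was estimated from the step that 1 fragment makes in the FPKM of short single-exon genes (269 to 308 values per library, all within 0.1 of whole fragments). Fragment numbers of genes were estimated with exon lengths of GENCODE M1 (NCBIM37), which may differ from the lengths behind the deposited FPKM. They cover counting error only. FPKM hold no counts for a count test.

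Values were tested as log2(FPKM + 1) for genes that averaged 1 FPKM or more, which understates changes of low genes, with limma 3.58.1 in R 4.3.3 (lmFit, eBayes with a trend, group only, two-sided) and Benjamini-Hochberg adjustment at 0.05. Single genes and pairs were compared with exact permutation tests (SciPy 1.17.1). The fits were tested on simulated data. All members are named. Of each other list, up to 4 genes with the smallest p and the genes under the limit are named. Chac1, Gcn1, Oma1, Dele1, Prkra, Nck1 and Atf6 were added after their values were seen. The 5 genes most like Atf4 followed a fixed measure. Alternatives were another pseudocount, no filter or a minimum of 10 FPKM, rescaling to equal sums, quantile normalization, centring, moderation without trend or robust, a replicate block and each library left out. Longest transcripts (GENCODE M1) were aligned to NCBIM37 with minimap2 2.31 to look for copies. Promoter windows came from RefSeq (GRCm38.p6). ChIP-seq and other assays of the study were not analysed here, and 1 gene of the interferon list is not reported here.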

Additional observations from a re-analysis of the deposited data

How the results depend on the processing

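The higher level of Ppp1r15a and Atf4 kept its direction and an unadjusted p under 0.05 in 15 of 15 alternatives, and neither passed after adjustment in any. For Ppp1r15a the log2 difference was 0.34 to 0.38 under other settings and 0.31 to 0.39 with 1 library left out (limma adjusted p 0.0823 to 0.472), and for Atf4 it was 0.18 and 0.16 to 0.21 (0.108 to 0.474). Members lower at an unadjusted p numbered 0 to 1 with 1 library left out, the 1 being Eif2s1 without control repeat 1. With 1 library left out, Eif2ak4 ranged from -0.021 (without control repeat 3; -0.014 without metformin repeat 1) to 0.049, and Cebpg from -0.0018 (without metformin repeat 2) to 0.058. Over the table, genes called lower went from 0 to 3 without a filter and 0 to 1 with 1 library left out (1 without control repeat 3 or metformin repeat 3), and with a minimum of 10 FPKM, where 5096 genes were tested, 400 were higher and 325 lower at an unadjusted p. With the repeat number as a replicate block, 2 genes were called higher rather than 3, since Ddit3 had an adjusted p of 0.0833, and 0 members passed (adjusted p 0.399 for Ppp1r15a and 0.408 for Atf4). Trib3 passed in 15 of 15 alternatives. Deviations of same-numbered libraries correlated at -0.03 to 0.05 and those of differently numbered libraries at -0.05 to 0.03. No pairing by number was seen over the table, but with 3 libraries per group this cannot show how the libraries were prepared. Depth limits Atf5, Eif2ak4 and Eif2ak3 most.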

Other observations

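The other factors of the ATF and CREB family were read from the same fit. Of 16 listed, 12 were tested, with a median log2 difference of -0.02, 0 higher (6.03% of all tested genes) and 2 lower (4.81%) at an unadjusted p of 0.05, and 0 past limma's adjusted threshold. The count of 2 was 0 without metformin repeat 3 and 1 without metformin repeat 1 or any 1 control library. Crebzf, a bZIP protein reported to hold back other factors of the family, was at 27.3 ± 0.809 FPKM in control and 25.2 ± 0.809 FPKM in metformin cells (log2 difference -0.11, limma adjusted p = 0.369). Crem, which yields both activators and repressors at CREs, was at 1.80 ± 0.192 and 1.38 ± 0.0971 FPKM (log2 difference -0.23, limma adjusted p = 0.402). Creb1 was at 7.70 ± 0.0808 and 7.29 ± 0.0862 FPKM, without overlap between the groups (log2 difference -0.07, limma adjusted p = 0.523). Atf1, a close relative of CREB, was at 44.5 ± 1.16 and 45.8 ± 1.14 FPKM with overlap (log2 difference 0.04). Atf6, the membrane-bound sensor of unfolded protein, was at 12.9 and 13.0 FPKM (log2 difference 0.0013). Atf7, Creb3l1, Crebl2 and Batf2 were under the limit of 1 FPKM.

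Eif2ak2 is itself an interferon-stimulated gene, and 10 other such genes were listed beside it. Ifit1, Ifit3, Oas1a, Mx1, Irf7 and Rsad2 were under 1 FPKM. Of the 4 tested, 1 was lower (4.81% of all tested genes) and 0 were higher (6.03%) at an unadjusted p of 0.05. Bst2, which encodes tetherin, had 61.8, 63.72 and 63.2 FPKM in control and 59.26, 57.22 and 55.04 FPKM in metformin repeats, without overlap (log2 difference -0.14, limma adjusted p = 0.320). Usp18 and Isg15 had overlapping groups and log2 differences of 0.02 each.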
